A study of Homo sapiens with 2 samples.

Results

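Sites that lie next to each other in the genome but on opposite strands are assigned to different RNAs, provided that their reads were placed correctly. How reads with several matches in the genome were handled is not given, so this was not tested. The sites described here are such neighbours in a PAR-CLIP list of HA-METTL14, at most 20 kb apart. Each pair was chosen by position and strand alone. The list was sorted by chromosome and by the middle base of each site, chromosome M was left out, and both sites of every consecutive pair on opposite strands within 20000 nt were kept. This gave 345 sites of the 5981 in the list, or 5.80% of its 5950 nuclear sites, in 180 pairs. A pair is called divergent when the minus-strand site comes first, so that the transcripts would point away from each other, and convergent when the plus-strand site comes first, so that they would point towards each other. There were 73 divergent pairs, with 146 sites, and 107 convergent pairs, with 214 sites, and 15 sites belonged to a pair of each kind.

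The series has 1 group, HA-METTL14, with 2 libraries (replicates 1 and 2) from HepG2, a human hepatocellular carcinoma cell line. The cells were a stable pool, made by lentiviral infection, puromycin selection and sorting for high GFP, that overexpressed METTL14 with an HA tag at its N terminus and EGFP at its C terminus. All cells had 200 µM 4-thiouridine for 16 h and were irradiated at 365 nm with 0.15 J/cm2, 3 times. No cells without the tagged protein and no input RNA were analysed here, so there is no background to set against any value. The deposited list gives 1 score per site over both libraries, so replicate error could not be measured. Intervals below cover counting error only and treat pairs or sites as independent, and read depth is unknown.

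METTL14 is the RNA-binding partner of METTL3 in the nuclear complex that writes N6-methyladenosine into transcripts. In PAR-CLIP a 4-thiouridine that was crosslinked to protein is read as C in place of T. The strand of a site is taken as the strand of the RNA it came from. Neighbouring genes on opposite strands can share a promoter region, from which they are read in opposite directions, or can meet at their 3′ ends. Many human promoters are also known to give short unstable RNAs in the direction opposite to the gene, and some genes overlap an antisense transcript. Genes and sequence at these sites were not analysed here, because the annotation at hand is on GRCh38 and the sites are on hg19. Sites are therefore named by their hg19 position, 1-based.

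Opposite-strand neighbours were a minority at every distance up to 20 kb, and were more frequent at longer distances. Of 1811 consecutive nuclear pairs within 20 kb, 180 were on opposite strands, 9.94% (95% Wilson interval 8.64 to 11.4%), and 1631 were on the same strand. Between 1 and 100 nt, 7 of 679 pairs were opposite (1.03%, 0.500 to 2.11%). Between 101 and 1000 nt it was 25 of 324 (7.72%, 5.28 to 11.1%), and between 1001 and 2000 nt 12 of 168 (7.14%, 4.13 to 12.1%). At 2001 to 5000 nt, 26 of 193 pairs were opposite (13.5%, 9.36 to 19%). At 5001 to 10000 nt the number was 48 of 213 (22.5%, 17.4 to 28.6%), and at 10001 to 20000 nt it was 62 of 234 (26.5%, 21.3 to 32.5%). Neighbouring bins overlapped in their intervals except the first and the second. The rule used strand and distance, so these shares describe the choice of the pairs and were not tested.

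The first comparison was of the 2 orientations, which the rule treats alike. Convergent pairs outnumbered divergent ones: 107 against 73, so that 40.6% of the pairs were divergent (Wilson interval 33.7 to 47.9%, two-sided exact binomial test against 50%, p = 0.0137, adjusted p = 0.0336 over the 5 tests made). Equal numbers were the reference of the test. Changes from minus to plus and from plus to minus must alternate along a chromosome. That makes their totals near equal over all distances, but does not fix their split within 20 kb. Over all distances the list held 1054 divergent and 1052 convergent changes of strand. Of these, 6.93% of the divergent and 10.2% of the convergent ones lay within 20 kb, a difference of -3.25 percentage points (Newcombe interval -5.65 to -0.856). The count depends on the limit: 53 of 118 pairs within 10 kb were divergent (44.9%, exact binomial p = 0.311, adjusted p = 0.389) and 36 of 70 within 5 kb (51.4%, exact binomial p = 0.905, adjusted p = 1). When only sites scoring 5 or more were paired, 22 of 57 pairs were divergent (38.6%, exact binomial p = 0.111, adjusted p = 0.278). Neighbouring protein-coding genes in the GRCh38 annotation were unequal in the same direction, with 1544 divergent and 2100 convergent neighbours apart by at most 20 kb. The site pairs were not tested against that reference.

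The surplus of convergent pairs lay between 5 and 20 kb. From 5001 to 10000 nt there were 17 divergent and 31 convergent pairs, and from 10001 to 20000 nt 20 and 42. Below 1 kb the order was the other way, with 19 divergent and 13 convergent pairs (59.4% divergent, Wilson interval 42.3 to 74.5%, which includes 50%). From 1001 to 2000 nt there were 6 of each, and from 2001 to 5000 nt 11 and 15. Just beyond the limit, from 20001 to 50000 nt, 77 divergent and 89 convergent pairs were seen. From 50001 to 100000 nt divergent pairs were the more numerous, 131 against 105 (55.5% divergent, 49.1 to 61.7%). By 100 kb the totals were 281 and 301, and by 1000 kb 835 and 843. The bins were not tested one by one.

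**Figure D1:**
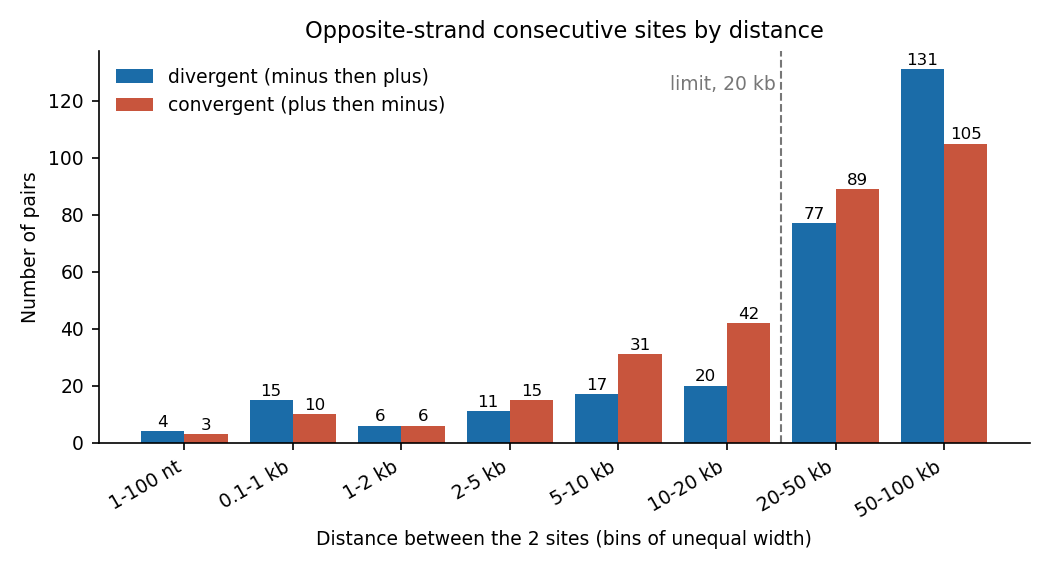
Number of divergent (blue) and convergent (red) consecutive nuclear pairs on opposite strands, in 8 bins of distance of unequal width up to 100 kb; the dashed line marks the 20 kb limit. Convergent pairs lead from 5 to 20 kb (31 against 17 and 42 against 20), and divergent pairs lead in the 2 shortest bins and beyond 50 kb.

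A larger share of the divergent pairs lay close together, which is another view of the surplus of convergent pairs beyond 5 kb. Their distances ran from 23 to 18803 nt with a median of 5344 nt and quartiles of 968 and 10152 nt. Convergent pairs ran from 7 to 19871 nt with a median of 8531 nt and quartiles of 3800 and 13544 nt. Within 5 kb lay 36 of the 73 divergent pairs, 49.3% (38.2 to 60.5%), and 34 of the 107 convergent pairs, 31.8% (23.7 to 41.1%). The difference was 17.5 percentage points (Newcombe interval 3.01 to 31.3, two-sided Fisher's exact test, p = 0.0202, adjusted p = 0.0336). The counts within 5 kb were near equal, 36 and 34. The difference in shares thus came from the convergent surplus between 5 and 20 kb, and is not a result separate from the numbers. Distance was also part of the rule that chose the pairs. The call on shares was less firm than that on numbers. It was lost in 8 of its 10 alternatives, among them the one without dense loci (loci of at least 5 sites with gaps of at most 1 kb), where the shares were 43.9 and 27.7% (exact p = 0.0447, adjusted p = 0.0744). When only sites scoring 5 or more were paired, the shares were 36.4% of 22 divergent and 37.1% of 35 convergent pairs, which turns the direction. Same-strand pairs within 20 kb were far closer than either kind, with a median of 286 nt and quartiles of 27 and 3420 nt.

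**Figure D2:**
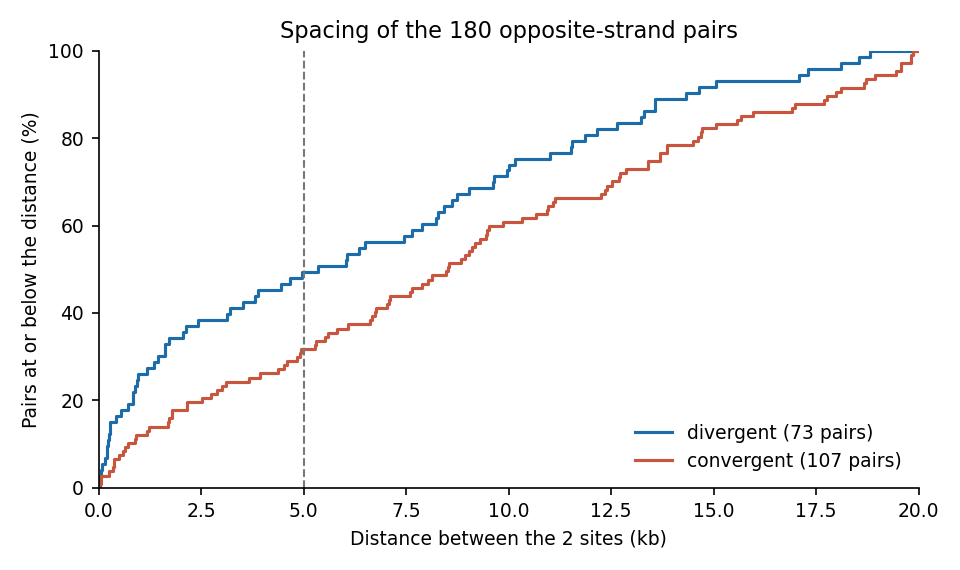
Cumulative share of pairs (percent, y axis) at or below each distance (kb, x axis) for the 73 divergent (blue) and 107 convergent (red) pairs; the dashed line marks 5 kb. The divergent curve lies above the convergent one through most of the range, with 49.3% against 31.8% of pairs at 5 kb.

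The closest pairs of both kinds lay inside dense loci, where a few sites stood on the strand opposite to the rest. The closest convergent pair had sites only 7 nt apart on chromosome 16: a plus-strand site at 33963758 with a score of 2347 and a minus-strand site at 33963765 with a score of 28. The same minus-strand site formed a divergent pair, 90 nt wide, with a plus-strand site at 33963855 that had a score of 9. It was the only minus-strand site in a locus of 48 sites that spanned 3112 nt, and it held a score of 28 against 194899 summed over the 47 plus-strand sites. On chromosome 2 the site at 133038188 was likewise the only plus-strand site among 58. Its score was 6, while the minus-strand sites on either side, at 133038125 and 133038242, had 4490 and 55, at distances of 63 and 54 nt. The 57 minus-strand sites of that locus summed to 133082. In these 2 loci the opposite strand thus carried 1 site each.

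On chromosome 19 the opposite strand was stronger. The 2 plus-strand sites of that locus, at 24183677 with a score of 351 and at 24183696 with 337, lay between minus-strand sites at 24183646 (score 463, 31 nt away) and at 24183758 (score 602, 62 nt away). These 4 sites made 1 divergent and 1 convergent pair, and all 4 scores were within a factor of 1.79 of their partner in the pair. The locus held 52 sites, 50 on the minus strand, with summed scores of 729454 on the minus and 688 on the plus strand. These were also the divergent and the convergent pair in which the lower of the 2 scores was highest.

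The closest divergent pair of all, 23 nt wide, was on chromosome 8, with a minus-strand site at 69218790 (score 7) and a plus-strand site at 69218813 (score 25). Unlike the loci above, this one was split into blocks: 9 minus-strand sites were followed by 4 plus-strand sites within 422 nt, with summed scores of 50347 and 55775. There was thus 1 change of strand in 13 sites, and the strands were about equal in summed score. A locus on chromosome 1 from 565527 to 568828 changed strand more often, with 4 pairs, 2 of each kind, among 5 plus-strand and 3 minus-strand sites. Its divergent pair at 566311 (score 48) and 566473 (score 307) was 162 nt wide. The last of the 6 dense loci with members, on chromosome 5 from 134261646 to 134263686, had 2 plus-strand and 3 minus-strand sites, with summed scores of 8 and 40, and 1 pair of each kind.

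Dense loci held similar shares of the members and of the other nuclear sites. Of the 345 members, 23 lay in a dense locus, 6.67% (4.48 to 9.80%), all of them in these 6 of the 37 dense loci. Over all 37 loci it was 7.56% (6.90 to 8.29%) of the other nuclear sites. Of the 180 pairs, 13 had both sites in a dense locus (7 divergent, 6 convergent) and 167 had neither. Among those 167 the divergent share was 39.5% (66 pairs, exact binomial p = 0.00832, adjusted p = 0.0273). The distances outside dense loci had a median of 6416 nt for divergent and 8929 nt for convergent pairs.

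Outside dense loci, 19 pairs lay within 1 kb of each other, 12 divergent and 7 convergent, on 13 chromosomes. Their distances ran from 199 to 968 nt with a median of 370 nt, and their scores from 3 to 114 with a median of 4, so most of them rested on sites near the bottom of the list. The closest divergent pair among them was on chromosome 19, with a minus-strand site at 18266346 (score 3) and a plus-strand site at 18266545 (score 7). By the same measure the closest convergent pair was on chromosome 3, at 47888035 (plus, score 6) and 47888298 (minus, score 27), 263 nt apart. The convergent pair at 11605880 (plus, score 54) and 11606228 (minus, score 3) on chromosome 2 came next at 348 nt. The highest score among these close pairs belonged to a divergent pair on chromosome 9, with 4 at 34637094 on the minus strand and 114 at 34637359 on the plus strand, 265 nt apart; this pair was picked out after its scores were seen.

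Few pairs had 2 high scores, and high scores were also scarce among single sites. The lower score of the pair was at least 10 in 12 pairs, 2 divergent and 10 convergent, and at least 100 in 3. Of all members, 16.5% had a score of at least 14 and 6.09% of at least 100, against 25.3% and 9.94% of other nuclear sites. The counts of pairs were not tested against these shares. Apart from the chromosome 19 locus, the highest such pair was convergent and stood alone on chromosome 18: a plus-strand site at 76069289 with a score of 685 and a minus-strand site at 76074564 with 181, 5275 nt apart. Neither had a further site of its own strand within 20 kb. On chromosome 17 a convergent pair 1792 nt wide joined a plus-strand site at 18965441 (score 508) to a minus-strand site at 18967233 (score 59). Each of these belonged to a run of 2 same-strand sites. On chromosome 1 a convergent pair 1687 nt wide had scores of 51 at 11968230 (plus) and 27 at 11969917 (minus). Among divergent pairs outside dense loci, the one with the highest lower score was on chromosome 10, with 8 at 134611021 (minus) and 11 at 134611962 (plus), 941 nt apart.

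In most pairs at least 1 site was at or near the floor of the list. The lower score was 3, the lowest value listed, in 97 of the 180 pairs (45 divergent, 52 convergent), and both scores were 3 in 13. Of single sites, 104 of 345 members (30.1%, 25.5 to 35.2%) and 25.7% (24.5 to 26.8%) of other nuclear sites had that score. A pair has 2 sites that can be at the floor, and the counts of pairs were not tested against these shares. The higher score was a median of 1.75 times the lower. In 19 pairs the ratio was at least 10, and in 3 it was at least 100. The largest ratio, 748, was that of the chromosome 2 pair at 133038125 and 133038188. A ratio of 628 came from chromosome 12, where the minus-strand site at 34372607 had a score of 6910, the highest of all members, and its convergent partner at 34358755 had 11. The third, 172, came from chromosome 21, with 516 on the plus strand at 47485091 and 3 on the minus strand at 47483910.

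Within pairs, neither strand led in score more often than the other. The plus-strand site had the higher score in 78 pairs and the minus-strand site in 78, with 24 ties (50.0% of untied pairs, Wilson interval 42.2 to 57.8%, exact binomial p = 1, adjusted p = 1). In divergent pairs the plus-strand site was higher in 35 and lower in 31, and in convergent pairs higher in 43 and lower in 47. Across all 180 pairs, Pearson's r of the log2 scores of the 2 sites was 0.25 and Spearman's rho 0.059. For the 73 divergent pairs r was 0.085 (rho -0.066), and for the 107 convergent pairs 0.39 (rho 0.14). Outside dense loci r was -0.14 (rho -0.21) over 66 divergent and 0.30 (rho 0.076) over 101 convergent pairs. For divergent pairs the sign of r thus turned without the 7 in dense loci, while rho was below 0 with and without them. These are descriptions only, since the pairs come from 1 list and some share a locus or a site.

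**Figure D3:**
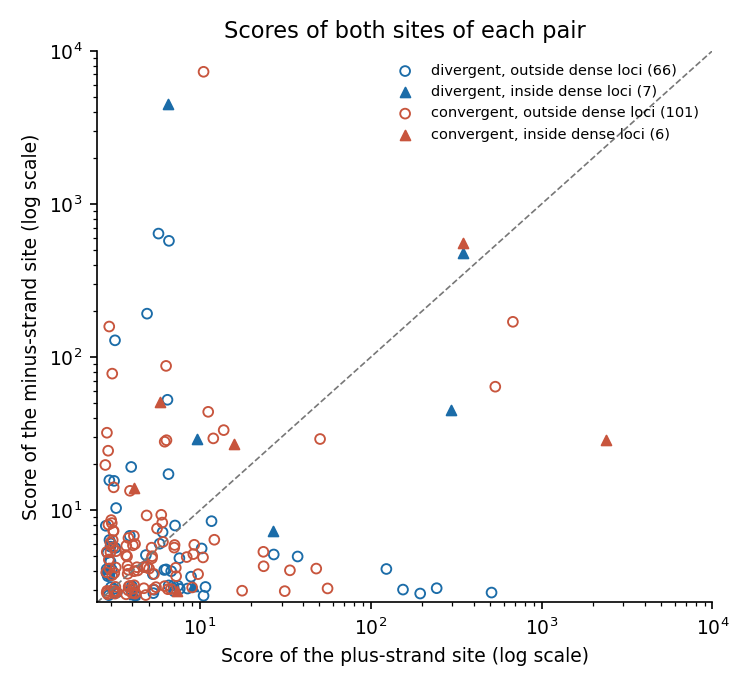
Score of the plus-strand site (x axis, log scale) against that of the minus-strand site (y axis, log scale) for each of the 180 pairs, divergent in blue and convergent in red, with filled triangles for the 13 pairs inside dense loci; points are shifted by up to 9% at random so that ties can be seen, and the dashed line marks equal scores. Most points lie along the axes, where at least 1 site is near the lowest score of 3, and few have both scores above 10.

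Sites of the 2 orientations were not told apart by score. After leaving out the 15 sites in both, 67 of 131 divergent sites had a score of at least 5, the median of the whole list (51.1%, 42.7 to 59.5%), against 101 of 199 convergent sites (50.8%, 43.9 to 57.6%). The difference was 0.391 percentage points with a Newcombe interval of -10.5 to 11.3 (two-sided Fisher's exact test, p = 1, adjusted p = 1), so differences of 10 points either way lie within the interval. Both groups had a median of 5 and a lower quartile of 3. At the top, 13 divergent sites (9.92%, 5.89 to 16.2%) and 8 convergent sites (4.02%, 2.05 to 7.73%) had a score of at least 100; these intervals overlap, and this threshold was not tested.

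As a group, opposite-strand neighbours had lower scores than the rest of the nuclear list. A score of at least 5 was held by 176 of 345 members, 51.0% (45.8 to 56.2%), and by 3299 of 5605 other nuclear sites, 58.9% (57.6 to 60.1%). The difference was -7.84 percentage points (Newcombe interval -13.3 to -2.45, two-sided Fisher's exact test, p = 0.00484, adjusted p = 0.0242). At a score of at least 14, the upper quartile of the list, it was 16.5% against 25.3% (Fisher's exact test, p = 0.000185, adjusted p = 0.000923). The medians were both 5, and the upper quartiles were 8 for members and 14 for other sites. Members made up 5.80% of nuclear sites and 0.278% of the summed nuclear score. Single sites weigh heavily in that sum: the highest other site had 1855548 of the 8134961 summed over other nuclear sites.

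The gap was wider against sites that also had company, on their own strand. Of the 2361 other nuclear sites with a same-strand neighbour within 20 kb, 68.4% (66.5 to 70.3%) had a score of at least 5, or 17.4 points more than members (Fisher's exact test, p = 5.47e-10, adjusted p = 2.74e-09). Members were not filtered in this way, and only 113 of the 345 had such a neighbour, so the groups differ in that too. The test also treats sites of 1 locus as independent. These 2361 sites had a median of 7 and an upper quartile of 30. Other nuclear sites with no same-strand neighbour within 20 kb had a median of 5 and an upper quartile of 9, close to the 5 and 8 of members. Among members themselves, the 113 with a same-strand neighbour within 20 kb had a median of 6 and an upper quartile of 11, and the 232 without one a median of 4 and an upper quartile of 7. Only sites above a lowest score are listed, so score and the number of listed neighbours can be linked through the list itself; that part was not tested. The call on members against all other sites was lost with same-strand sites within 1 kb merged (51.3 against 56.1%, Fisher's exact test, p = 0.0985, adjusted p = 0.164) and with limits of 5 or 10 kb.

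**Figure D4:**
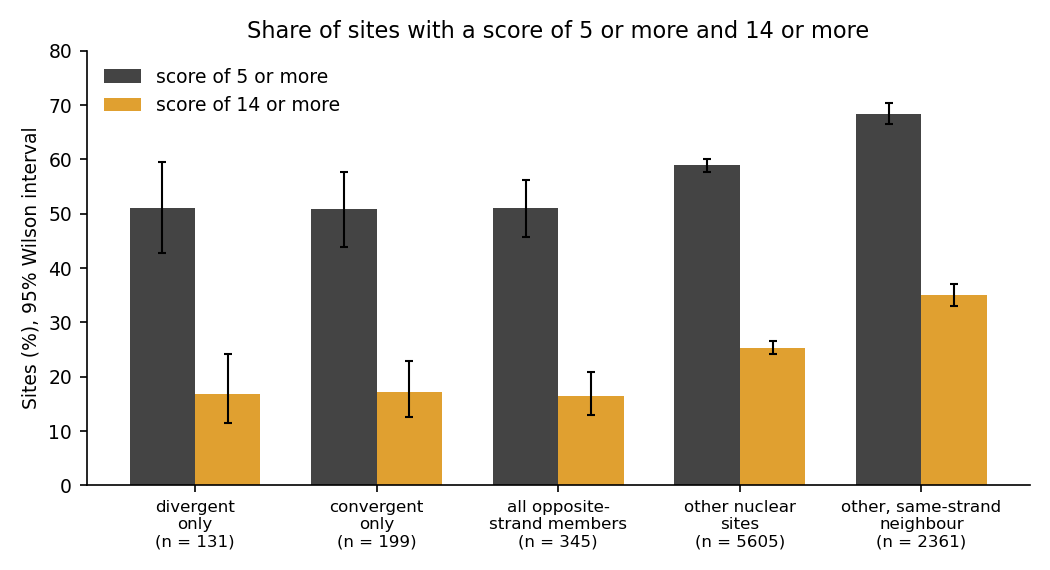
Share of sites (percent) with a score of at least 5 (dark) and at least 14 (yellow) in sites of divergent pairs only, sites of convergent pairs only, all members, all other nuclear sites, and those of the other sites that had a same-strand neighbour within 20 kb; bars carry 95% Wilson intervals, and n is given under each group. The first 3 groups lie near 51 and 17%, below the 58.9 and 25.3% of other nuclear sites.

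The members with high scores had partners of mixed scores. In all, 21 members on 11 chromosomes had a score of at least 100, of which 7 lay in dense loci. In 15 of their 21 pairings the partner had less than 100, and the median partner score was 7, against a median of 5 over all members, of which 6.09% had a score of at least 100. The partner was below 5 in 7 pairings. Examples outside dense loci were the minus-strand site at 22877658 on chromosome 19 (score 601, divergent partner 7), the minus-strand site at 2012335 on chromosome 16 (score 593, divergent partner 6) and the plus-strand site at 19355646 on chromosome 17 (score 253, divergent partner 3). The other 6 pairings were the 3 pairs on chromosomes 18 and 19 already described, counted from either side. These sites were picked out by their scores and are a description.

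Most pairs joined 2 sites that each stood alone in a run. A run was counted as sites of 1 strand in a row with gaps of at most 20 kb. A site of the other strand ends a run, so a site alone in its run can still have a same-strand site within 20 kb. The partner in a pair thus always ends the run on its side, and the counts of runs are partly set by the rule. Without that cut, 232 of 345 members and 3244 of 5605 other nuclear sites had no same-strand site within 20 kb. These were not tested against each other. In 101 pairs (56.1%) both sites were alone in this sense, in 55 (30.6%) 1 of them was, and in 24 (13.3%) both sides belonged to runs of at least 2 sites. By orientation, both sites were alone in 44 of 73 divergent pairs (60.3%) and 57 of 107 convergent pairs (53.3%), and both were in runs in 8 (11.0%) and 16 (15.0%); the difference was not tested. The longest run beside a change of strand had 43 sites, in the dense locus on chromosome 19.

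A site that stands alone between 2 sites of the other strand makes 1 pair of each kind, and so adds nothing to the difference between them. There were 15 such sites, 7 plus and 8 minus, on 9 chromosomes. They had a median score of 5 and none above 28, against a median of 6 for the sites around them, and the stretch from flank to flank ran from 97 to 28144 nt. In 6 of the 15 the middle site scored below both of its neighbours, and in 1 it scored above both. Of these 15 sites, 3 lay in dense loci. In 1 place on chromosome 6, strands alternated over 4 sites in a row, with scores of 12 at 34213296 (plus), 6 at 34231288 (minus), 3 at 34241440 (plus) and 4 at 34252519 (minus). Joined through shared sites, the 180 pairs formed 151 chains of 2 sites, 13 of 3 and this 1 of 4. Among the 151 pairs that shared no site with another, 59 were divergent (39.1%, exact binomial p = 0.00899, adjusted p = 0.0225).

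Chromosome 19 had the most pairs, 26 (12 divergent, 14 convergent), and 50 of its 404 sites were members, 12.4% (9.52 to 15.9%). On the other nuclear chromosomes together it was 295 of 5546 sites, 5.32% (4.76 to 5.94%). Chromosome 22 came next in share with 16 of 148 sites (10.8%), then chromosome 16 with 29 of 356 (8.15%). Chromosomes 1, 16 and 17 had 18, 16 and 14 pairs, and chromosome 4, with 245 sites, had 2. Chromosome Y, with 58 sites, had 0 pairs. As a share of consecutive pairs within 20 kb, opposite strands made up 14.6% on chromosome 19, which was not the highest. Chromosomes 22 (19.5% of 41 pairs), 9 (18.8% of 48), 15 (17.6% of 17), 18 (16.7% of 12) and 5 (14.9% of 67) had more. Low shares were 4.59% of 196 on chromosome 2, which holds the dense locus of 58 sites, and 3.45% of 58 on chromosome 4. The chromosomes were not tested against each other, and the number of sites per length differs between them.

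The surplus of convergent pairs was spread over chromosomes. Of the 23 chromosomes with a pair, 14 had more convergent, 6 had more divergent and 3 had equal numbers. The widest gap was on chromosome 9, with 8 convergent pairs and 1 divergent. Without chromosome 19, an alternative added after the data were seen, 61 of 154 pairs were divergent (39.6%, exact binomial p = 0.0122, adjusted p = 0.0306).

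**Figure D5:**
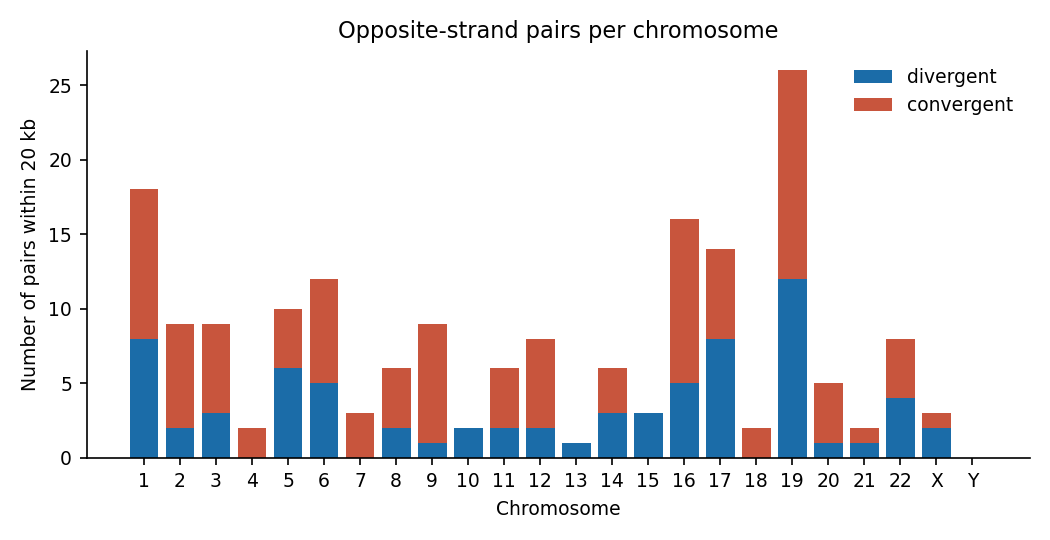
Number of divergent (blue) and convergent (red, stacked on top) pairs within 20 kb on each nuclear chromosome. Chromosome 19 has the most, 26, chromosome 9 has 8 convergent pairs to 1 divergent, and chromosome Y has none.

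The widest pairs kept were convergent, on chromosome 22 at 37425704 (plus, score 4) and 37445523 (minus, score 3), 19819 nt apart, and on chromosome 17 at 79974731 (plus, score 7) and 79994602 (minus, score 6), 19871 nt apart. The first pairs left out were a convergent one on chromosome 17 at 7286270 (plus, score 5) and 7306477 (minus, score 7), 20207 nt apart, and a divergent one on chromosome 19 at 55879675 (minus, score 4) and 55899940 (plus, score 4), 20265 nt apart.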

How the data were processed

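PAR-CLIP sites came from 1 deposited list that the labels of both libraries name. The submitters' processing notes name hg19, Bowtie 1.1.2, cutadapt 1.13 and FastQC 0.11.5, and the site names carry that of the caller rbsSeeker. How it was set, how multi-mapping reads were handled and when the libraries were pooled is not given in any source used. The deposited score is the authors' whole number per site, of unstated unit and at least 3. It was used only within the list.

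The middle base of each 201 nt interval (BED start plus 101) gave the position. Nuclear sites that shared a middle base numbered 0. Pairs were compared with exact binomial and Fisher's exact tests, two-sided, with Benjamini-Hochberg adjustment over 5 tests and a threshold of 0.05 (SciPy 1.17.1, pandas 2.3.3). The pairing was checked on made-up sites. Intervals are 95% Wilson intervals, and for differences Newcombe intervals. Pairs named were the 5 closest and the 5 with the highest lower score per orientation, and 2 on each side of the limit; others were chosen after their values were seen. The members, lists and tests were chosen with earlier results of these data known. Alternatives changed the distance limit, merged near sites, or left out low scores, dense loci or shared sites. Gene neighbours came from GENCODE 29 on its own build (GRCh38) and were not joined to sites.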

Additional observations from a re-analysis of the deposited data

How the results depend on the processing

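Of 50 recomputed values, 27 were counted as having the direction and call first reported. These include all 9 for the share of pairs in which the plus-strand site scored higher. Its first value, 50.0%, had no direction to keep, so only the call could change, and the 9 values ran from 42.0 to 50.3%. The divergent share of pairs, 40.6%, was 51.4% with a limit of 5 kb, 44.9% with 10 kb and 38.6% with only sites scoring 5 or more, and was past the threshold in its other 7 alternatives (36.5 to 43.4%; the one with pairs over 1 kb apart only, 36.5%, and the one without chromosome 19 were added after the data were seen). The share of pairs that lay within 5 kb was 17.5 points higher for divergent than for convergent pairs. The counts within 5 kb were near equal, 36 and 34. This difference in shares missed the threshold with a limit of 10 kb (15.6) or 50 kb (6.65) and with same-strand sites within 1 kb merged (15.7). It also missed it without dense loci (16.2), with pairs that share no site (15.3), without chromosome 19 (17.5) and with 10 kb as near (11.9). It was -0.779 with only sites scoring 5 or more. With a limit of 5 kb it has no value. The difference in score between orientations, 0.391 points, was below 0 with limits of 5 kb (-4.64), 10 kb (-7.95) and 50 kb (-1.53), merging within 30 nt (-0.374) or 1 kb (-1.91), without dense loci (-0.614), without chromosome 19 (-3.50) and at a score of at least 14 (-0.292); its adjusted p was at least 0.389 throughout. The lower scores of members, -7.84 points, missed the threshold with limits of 5 kb (-8.60) and 10 kb (-6.68), merging within 1 kb (-4.77) and only sites scoring 5 or more (-8.51). With only sites scoring 5 or more, both comparisons of score used the share at 14 or more in place of 5. For members it was 34.2% of 111 sites, against 42.7% of 3364 others. The cause of these changes was not tested, and narrower limits also left fewer pairs. No paired analysis was possible because there is only 1 group, and no replicate could be left out, since scores are not given per library. Depth is unknown, so a strand without a site is not shown to lack RNA or binding.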

Other observations

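Neighbouring genes have unequal spacing by orientation in the annotation alone. Among the 19927 nuclear protein-coding genes of GENCODE 29, ordered by start on GRCh38, 4851 neighbours were divergent (minus then plus) and 4853 convergent (plus then minus). Of these, 31.8% of the divergent (1544) and 43.3% of the convergent neighbours (2100) lay apart by at most 20 kb from end to end, with median gaps of 3177 and 4016 nt. Within 1 kb it was 647 divergent (13.3%) and 467 convergent (9.62%). A further 1078 divergent and 1273 convergent neighbours overlapped. These are gaps between gene ends, not between sites inside genes, and whether the pairs of sites lie in such genes was not tested.

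Chromosome M, left out of the pairs by rule, had 31 sites (23 plus, 8 minus) and 10 opposite-strand pairs, 5 divergent and 5 convergent. These were 33.3% (Wilson interval 19.2 to 51.2%) of its 30 consecutive pairs, against 9.94% (8.64 to 11.4%) of nuclear pairs within 20 kb. Their median distance was 516 nt (85 to 1103 nt), against 7615 nt for the nuclear pairs. This chromosome is so short that all its consecutive sites fall within the limit, and the values are a description with no test.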
